A study of Mus musculus with 17 samples.

Results

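The genes described here encode the small family of RNA regulators built around the Nanos proteins: Nanos1, Nanos2, Nanos3, their partner Dnd1 (dead end) and Pum2 (Pumilio). They were taken by symbol from the expression tables, which made 5 of 23361 genes, and all 5 were present in the tables of both embryonic days. Nanos proteins are zinc-finger proteins that bring the CCR4-NOT complex, which shortens poly(A) tails, to messenger RNAs chosen together with an RNA-binding partner. In mouse primordial germ cells, from which eggs and sperm descend, NANOS3 is needed for survival after the cells are specified, NANOS2 directs the male programme in the fetal testis and restrains meiosis, and DND1 is needed for survival and binds NANOS2 and the targets they repress. Pumilio proteins are sequence-specific repressors that recognise a short UGUA-containing element in 3′ untranslated regions (3′ UTRs) and are the classical partners of Nanos in flies.

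The study profiled purified mouse primordial germ cells by RNA sequencing of ribosomal-RNA-depleted total RNA, with or without ionizing radiation (IR). At E11.5 (E, embryonic day) there were 2 irradiated libraries (IR) and 3 untreated libraries (noIR), with no sex given. At E13.5 there were 3 irradiated female libraries (FIR), 3 untreated female libraries (FC) and 2 male sets of 3 libraries coded MIR and MC. The labels of the male sets conflict: titles and condition entries call MIR untreated and MC irradiated, whereas the codes read the other way by the pattern of the female codes. Here each male set goes by its code, and their differences are given as MIR minus MC without saying which was irradiated. The cell type entry of FIR replicate 1 reads E11.5 although its title and source read E13.5. The sources used here give no strain, dose, time after irradiation or method of purification. The labels do not say whether libraries came from separate animals, so the p-values reflect spread between libraries that may be technical.

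Values are the authors' FPKM (fragments per kilobase of exon, with library size scaled out), so levels of different genes can be compared per length, but library totals are not given. The spacing of the lowest values gave an estimate of 11500000 to 19880000 fragments per library at E11.5 and 13800000 to 26960000 at E13.5. Germ cell genes were present in every library: the summed FPKM of 22 germ cell reference genes was 7341 to 11441 at E11.5, 5692 to 5774 in FC, 3007 to 4439 in FIR, 7651 to 8681 in MC and 2884 to 5541 in MIR. Supporting cell markers also differed between the E13.5 groups. The summed FPKM of 12 pregranulosa (fetal ovarian supporting cell) markers was 55.9 to 64.8 in FC and 390 to 789 in FIR, and that of 12 Sertoli (fetal testis supporting cell) markers was 80.9 to 135 in MC and 1329 to 4492 in MIR. In MIR replicates 1 and 3 the Sertoli markers summed to 4492 and 4053, above the 2884 and 3849 of the germ cell genes. At E11.5, IR replicate 1 stood apart, with Dazl at 412 FPKM against 12.4 to 92.6 in the other 4 libraries and Amh, a Sertoli hormone gene, at 8.18 against 0 to 0.201. In such bulk samples, fewer cells of a type and less RNA per cell cannot be told apart.

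Tests were limma moderated tests on log2(FPKM + 1), adjusted by the Benjamini-Hochberg method over all genes tested, and a gene is said to have risen or fallen only at an adjusted p under 0.05. To be tested, a gene had to reach 1 FPKM in 2 or more of the E11.5 libraries or 3 or more of the E13.5 libraries. At E11.5, 4 of the 5 genes passed, and Nanos2 did not. At E13.5 all 5 passed, Nanos2 solely through the 3 MC libraries. Its differences from MC were therefore built into the filter and are given as a description, with no test.

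The element that Pumilio proteins read was located in the transcripts of the regulators and of a known target, to show the letters behind the name. The element TGTANATA, written as DNA and searched on the transcript strand of 1 annotated 3′ UTR per gene, was present in 4601 of 21775 genes (21.1%). UTRs with it were longer, at a median of 2028 bases against 556. Among the regulators it occurred once in Nanos1 and 2 times in Pum2, and not in the windows of Nanos2, Nanos3 or Dnd1, whose 3′ UTRs are 947, 172 and 360 bases long. Of the 12 transcripts listed as reported targets, 4 had it, among them Cdkn1b with 2, a known Pumilio target. A match is a description and not a binding site. The 30-base windows below are read 5′ to 3′ on the transcript strand from GRCm38 (mm10) with GENCODE M21 annotation, and capitals mark the element.
Nanos1 3′ UTR, chr19:60757710-60757739, plus strand: taatcatatcgTGTACATAtttggaaacgg
Pum2 3′ UTR, chr12:8750154-8750183, plus strand: gtttatagagaTGTATATAgaattatagtt
Pum2 3′ UTR, chr12:8750407-8750436, plus strand: atgtacagaatTGTATATActtataattgt
Cdkn1b 3′ UTR, chr6:134924472-134924501, plus strand: tgtactacctgTGTATATAgtttttatctt
Cdkn1b 3′ UTR, chr6:134925226-134925255, plus strand: aagtgtgcctgTGTATATAactctgtaaag

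Nanos3, which keeps early germ cells alive, lies on chromosome 8 at 84173731 to 84185217 on the minus strand of GRCm38, with the microRNA genes Mir181c and Mir181d inside its span. At E11.5 it was the most highly expressed Nanos gene, at 24.0, 36.5 and 38.8 FPKM in the noIR libraries and 21.3 and 23.5 in the IR libraries. Both IR libraries lay below all 3 noIR libraries, and 18.1% of genes tested there did not overlap. At E13.5 the FC libraries were at 18.1, 9.09 and 11.7 FPKM and the FIR libraries at 10.7, 8.93 and 13.1, so the female groups overlapped. The MC libraries were at 15.8, 11.1 and 14.6 FPKM and the MIR libraries at 5.26, 8.26 and 6.51. Every MIR library lay below every MC library, and 64.9% of genes tested did not overlap between these sets. By group mean the E13.5 order was MC (13.8 ± 2.48, SD, n = 3), FC (12.96 ± 4.62), FIR (10.9 ± 2.1) and MIR (6.68 ± 1.5). The libraries of the first 3 of these overlapped. The E11.5 levels, 33.1 ± 7.94 (n = 3) in noIR and 22.4 ± 1.59 (n = 2) in IR, stand in a separate table and were not tested against E13.5.

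Nanos2, the male-fate regulator, lies on chromosome 7 at 18987400 to 18988962 on the plus strand. The annotated antisense transcript Gm45058 shares 766 bases with it. Whether counting used strand is not given in the sources used here, so reads of the pair cannot be told apart. Nanos2 was detected mainly in male libraries, at 1.73, 5.59 and 3.74 FPKM in MC and 0.365, 0.659 and 0.586 in MIR. Every MC library lay above every MIR library and every female one, which was fixed in advance, since Nanos2 passed the filter solely through the MC libraries. Every MIR library also lay above every female one, and the share of genes for which this holds was not computed. Among female libraries it was at 0.0875 and 0.0283 FPKM in 2 FC libraries, at 0.0673 in 1 FIR library, and listed at 0 in the other FC library and both other FIR libraries. With the estimated depth this is about 37.2, 145 and 104 fragments in the MC libraries, 8.4, 21.6 and 13.2 in MIR and at most 2.4 in any female library. The lowest estimates above 0, 1.2 and 2.4, are not whole numbers, so these counts are approximate and may be too high. At E11.5 Nanos2 was listed at 0 in all 3 noIR libraries, at 0.0383 FPKM in IR replicate 2 and at 1.61 in IR replicate 1, about 40.9 fragments. That single library is the one that stood apart in Dazl and Amh.

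Nanos1, the family member with no known requirement in mouse germ cells, lies on chromosome 19 at 60755987 to 60759914 on the plus strand. It was low at E11.5, at 0.952, 0.935 and 1.26 FPKM in noIR and 2.54 and 1.29 in IR. At E13.5 it was at 3.31, 3.87 and 4.38 FPKM in FC, 3.85, 6.48 and 6.30 in FIR, 2.70, 2.80 and 3.30 in MC and 2.27, 4.23 and 2.40 in MIR. By group mean the order was FIR (5.54 ± 1.47), FC (3.85 ± 0.539), MIR (2.97 ± 1.09) and MC (2.93 ± 0.32), and each group overlapped with its neighbour in that order. It was thus the one Nanos gene with its highest E13.5 mean in an ovarian group. The ratio of Nanos3 to Nanos1 in a library, 25.3 to 39.1 in the noIR libraries, was 2.35 to 5.47 in FC and 1.38 to 2.78 in FIR.

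Dnd1, the RNA-binding partner of NANOS2, lies on chromosome 18 at 36763671 to 36766214 on the minus strand and shares 140 bases at its end with Wdr55 on the other strand. It was the most highly expressed of the 5 genes in every E11.5 library and in every FC and MC library. The noIR libraries were at 120.0, 135 and 128 FPKM and the IR libraries at 91.1 and 117. The FC libraries were at 93.2, 92.4 and 84.9 FPKM and the FIR libraries at 27.2, 34.1 and 40.7. The MC libraries were at 96.9, 82.6 and 85.2 FPKM and the MIR libraries at 14.5, 24.8 and 25.1. FC (90.2 ± 4.57) and MC (88.2 ± 7.65) differed by less than their spread, whereas FIR (34.0 ± 6.76) and MIR (21.5 ± 6.04) lay far below both with no overlap. Over all genes tested, 61.6% did not overlap between FIR and FC and 64.9% between MIR and MC. In all FIR and MIR libraries Dnd1 was below Pum2, the reverse of the order in FC and MC.

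Pum2, the Pumilio repressor, lies on chromosome 12 at 8674134 to 8752581 on the plus strand. It varied least of the 5. At E11.5 it was at 39.7, 31.6 and 32.5 FPKM in noIR and 39.6 and 34.7 in IR, and the groups overlapped. At E13.5 it was at 63.6, 54.4 and 60.9 FPKM in FC, 47.9, 45.5 and 41.5 in FIR, 57.8, 57.2 and 59.8 in MC and 53.5, 52.4 and 46.9 in MIR. FC (59.7 ± 4.71) and MC (58.3 ± 1.36) overlapped, and the means of MIR (50.9 ± 3.56) and FIR (45.0 ± 3.24) came below them in that order.

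**Figure D1:**
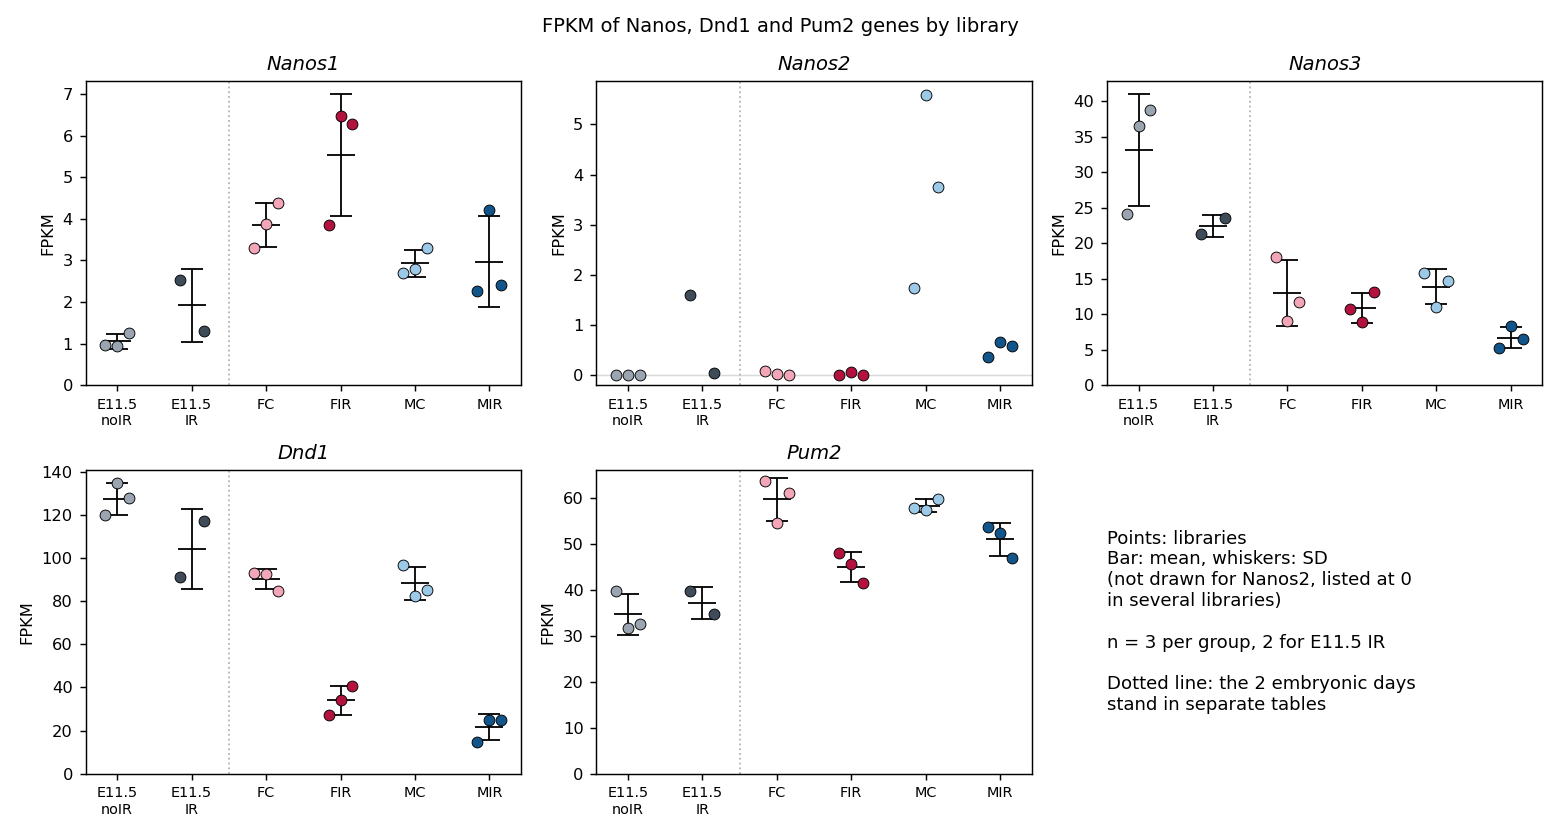
FPKM of each gene (vertical axes, linear, from 0, or from just below 0 for Nanos2) in every library by group (horizontal axis). Group means and SD are drawn except for Nanos2, and a dotted line stands between the separately made tables of the 2 embryonic days. Dnd1 sits between 82.6 and 96.9 in FC and MC and between 14.5 and 40.7 in FIR and MIR, and Nanos2 is above 1 FPKM in the 3 MC libraries and in IR replicate 1 at E11.5.

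At E11.5 none of the regulators rose or fell between irradiated and untreated cells. Limma called 2 of 11315 genes (0.0177%), 1 higher and 1 lower (0.00884% each), and 358 had an unadjusted p under 0.05, none of the 4 regulators tested among them. Nanos3 was lower in the IR libraries by a log2 difference of -0.52 (SE 0.22, 95% interval -1.03 to 0.00) and Dnd1 by -0.30 (SE 0.16, interval -0.67 to 0.07). Nanos1 differed by 0.48 (SE 0.29, interval -0.20 to 1.15) and Pum2 by 0.10 (SE 0.17, interval -0.29 to 0.50), and the adjusted p was 0.974 for each of the 4. Nanos1, Nanos3 and Dnd1 did not overlap between groups, as 18.1% of the tested genes did not. Without IR replicate 1, the library that stood apart, Nanos3 differed by -0.45, Dnd1 by -0.12 and Nanos1 by 0.17. The intervals leave room for changes of the size seen at E13.5 in Nanos3 but not in Dnd1.

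In E13.5 females Dnd1 fell after irradiation to 0.379 of its untreated level on the FPKM + 1 scale, and Pum2 fell to 0.759. In this comparison 44.8% of the 12852 genes tested were called, 22.9% of them lower and 21.8% higher, so a call by itself sets no gene apart. The log2 difference of Dnd1 was -1.40 (SE 0.19, interval -1.81 to -0.99, limma adjusted p = 0.000175), and 22 of the genes tested had a lower value. That of Pum2 was -0.40 (SE 0.09, interval -0.59 to -0.20, adjusted p = 0.00407). Both were lower in 3 of 3 FIR libraries than in any FC library, and 61.6% of genes tested did not overlap. Nanos3 differed by -0.19 (interval -0.70 to 0.31, adjusted p = 0.517) and Nanos1 by 0.41 (interval -0.05 to 0.87, adjusted p = 0.131). Nanos2 was at most at 0.0875 FPKM in any female library, so its difference of -0.02 was bound to be near 0 and is a description only. After quantile normalization Pum2 no longer passed, at -0.19 and an adjusted p of 0.129. Nanos1 passed without FIR replicate 1 (0.61, adjusted p = 0.0337), with library weights (0.60, adjusted p = 0.000166) and with the germ cell reference level as a covariate (0.97, adjusted p = 0.00201).

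Between the male sets Dnd1 and Nanos3 were lower in MIR than in MC. The log2 difference of Dnd1 was -2.03 (SE 0.19, interval -2.43 to -1.62, limma adjusted p = 8.57e-06), which is 0.246 of the MC level, and 6 of the genes tested had a lower value. That of Nanos3 was -0.96 (SE 0.23, interval -1.46 to -0.45, adjusted p = 0.0037), or 0.516 of the MC level. In this comparison 59.7% of genes tested were called, 31.0% lower and 28.7% higher, and 64.9% did not overlap. Nanos2, as a description, differed by -1.52. Pum2 differed by -0.19 (interval -0.39 to 0.00, adjusted p = 0.083) although every MIR library lay below every MC library, and Nanos1 by -0.02 (interval -0.48 to 0.44, adjusted p = 0.947). Scaling libraries to a common median lowered all differences between the male sets by 0.16, which took Pum2 past the threshold (-0.35, adjusted p = 0.00818) and changed the calls over all genes from 3690 higher and 3989 lower to 3076 and 5143.

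The Nanos3 call between the male sets was kept when any single library was left out. With the mean level of the germ cell reference genes as a covariate, Nanos3 differed by -0.56 (limma adjusted p = 0.437). That level itself did not overlap between the groups, with a mean log2(FPKM + 1) of 5.26 to 6.13 in MIR and 6.69 to 6.74 in MC. The covariate therefore lowers the power of the comparison, and this lost call cannot be told apart from that. Leaving out MIR replicates 1 and 3 together left 1 MIR library, assumed to vary like the other groups, and Nanos3 then differed by -0.67 (adjusted p = 0.141), so the lost call there goes with fewer libraries as well as with a smaller difference. Dnd1 kept its call under every alternative tried in both comparisons. It ranged from -1.54 to -0.91 in FIR against FC and from -2.30 to -1.21 in MIR against MC, with the smallest differences under that covariate.

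**Figure D2:**
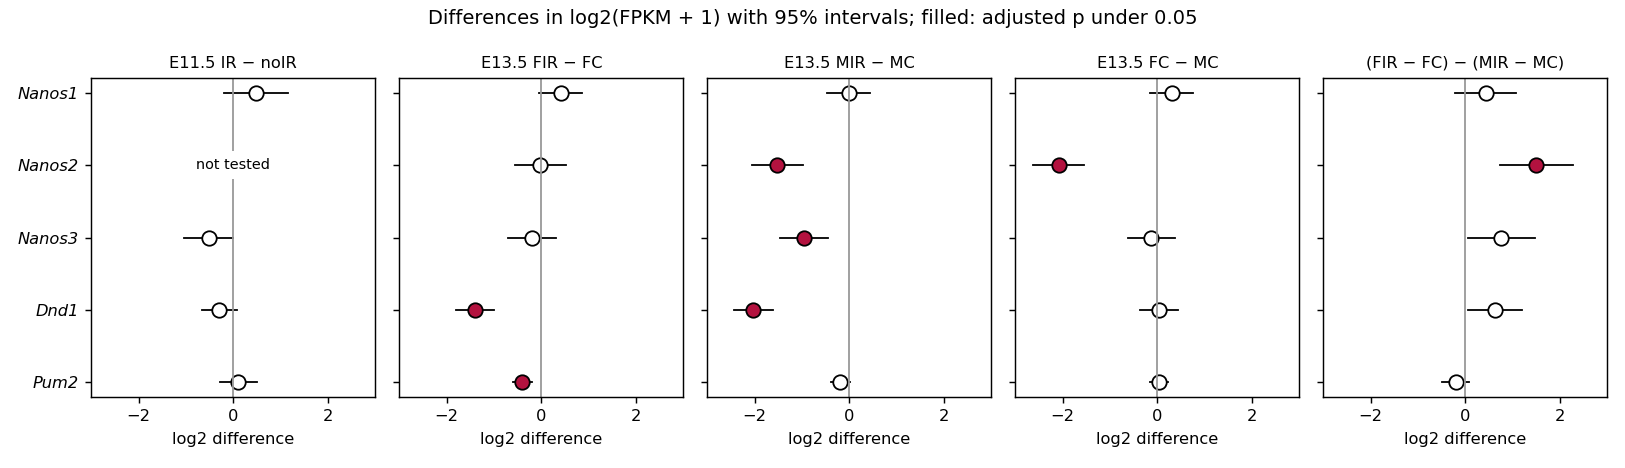
Log2 differences in FPKM + 1 (horizontal axes) with 95% intervals for each gene in the 5 comparisons, filled where the adjusted p was under 0.05. Dnd1 lies at -1.40 in FIR minus FC and -2.03 in MIR minus MC, and Nanos1 has no filled point in any comparison. The filled points of Nanos2 all involve MC, the group through which it passed the filter. The points and intervals of Nanos2 are therefore a description and not a test.

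Dnd1 had a lower value than any of the germ cell genes it was set beside. All 22 germ cell reference genes had a higher value than Dnd1 in both E13.5 comparisons. Their median log2 difference was -0.61 in FIR minus FC and -1.05 in MIR minus MC, against -0.03 and -0.04 over all genes tested. The lowest of the 22, Kit, which encodes the stem cell factor receptor, was at -1.004 and -1.40. Relative to Ddx4, the germ cell RNA helicase, Dnd1 in the FC libraries was at 0.299, 0.279 and 0.243 of the Ddx4 FPKM and in the FIR libraries at 0.172, 0.137 and 0.171. In the MC libraries the ratio was 0.356, 0.259 and 0.266, and in the MIR libraries 0.123, 0.121 and 0.180. Neither pair of groups overlapped, as 61.6% of single genes tested did not in females and 64.9% did not between the male sets. The share of genes whose ratio to Ddx4 does not overlap was not computed. The mean log2 ratio differed by -0.78 in females and -1.07 between the male sets, each with an exact two-sided permutation p of 0.1, the smallest that 3 against 3 libraries allow.

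The ratio of Nanos3 to Ddx4 overlapped between groups. It was 0.0579, 0.0275 and 0.0336 in FC, 0.0678, 0.0359 and 0.0550 in FIR, 0.0581, 0.0347 and 0.0457 in MC and 0.0446, 0.0402 and 0.0466 in MIR. The log2 ratio differed by 0.44 in females (exact permutation p = 0.3) and by -0.05 between the male sets (exact permutation p = 0.9). In MIR minus MC, 5 of the 22 reference genes had a higher value than Nanos3, so its difference lay inside their range. Pum2 differed less than 21 of the 22 reference genes in females and less than all 22 between the male sets. The ratio of Dnd1 to Nanos3 was 5.16 to 10.2 in FC and 2.54 to 3.82 in FIR, and 5.82 to 7.47 in MC and 2.76 to 3.86 in MIR. It did not overlap in either pair, and the share of genes whose ratio to Nanos3 does not overlap was not computed.

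The groups with low Dnd1 were those with high supporting cell markers. All 12 pregranulosa markers and all 9 tested macrophage markers rose in FIR against FC, and all 12 Sertoli markers and 8 of 9 macrophage markers were higher in MIR than in MC. Of the Sertoli list, 5 of 12 also rose in FIR (Wt1, Gata4, Nr5a1, Inhbb and Cst9, by 1.69 to 3.84), and its sum went from 29.3 to 30.8 in FC to 90.0 to 168 in FIR. Of that list, Dhh and Hsd17b3 were listed at 0 in all FC libraries and Hsd17b3 in all FIR libraries. The defining Sertoli marker Amh was at 15.1 to 28.0 FPKM in MC and 252 to 876 in MIR, and Fst, a pregranulosa marker, was at 1.60 to 2.02 in FC and 35.5 to 99.6 in FIR. Within the MIR set, replicate 1 had the highest Sertoli sum (4492) with the lowest Dnd1 (14.5) and Nanos3 (5.26), replicate 3 had a sum of 4053 with Dnd1 at 25.1 and Nanos3 at 6.51, and replicate 2 had the lowest sum (1329) with Dnd1 at 24.8 and Nanos3 at 8.26. Within the FIR set, replicate 1 had the highest pregranulosa sum (789) and the lowest Dnd1 (27.2). Its Nanos3, at 10.7, lay between the 8.93 of replicate 2 and the 13.1 of replicate 3, whose sums were 400 and 390. The part of other cells in these differences was not tested beyond the Ddx4 ratios and the covariate above.

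**Figure D3:**
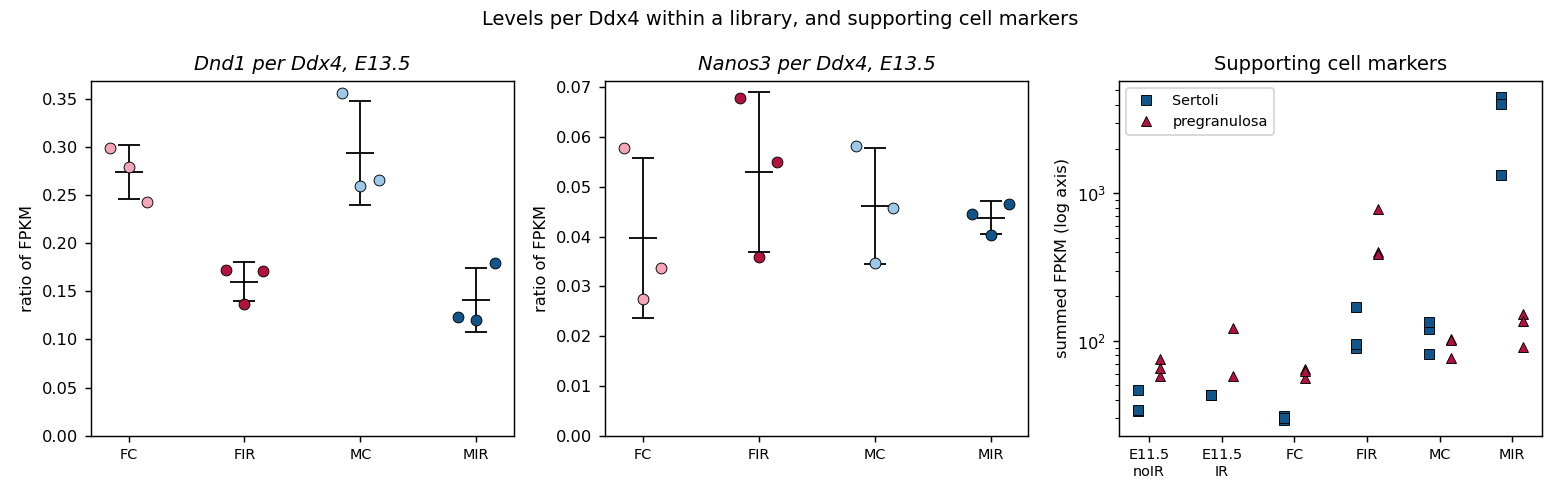
Dnd1 and Nanos3 FPKM divided by Ddx4 FPKM in each E13.5 library (left and middle panels, linear axes from 0, mean and SD of 3 libraries) and the summed FPKM of 12 Sertoli and 12 pregranulosa markers in all groups (right panel, log axis). The Dnd1 ratio is 0.243 to 0.356 in FC and MC and 0.121 to 0.180 in FIR and MIR, while the Nanos3 ratios of all 4 groups overlap.

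Between the sexes at E13.5, taking FC and MC, none of the 4 regulators other than Nanos2 passed the limma threshold, where 34.9% of genes tested were called, 18.8% lower and 16.1% higher, and 59.8% did not overlap. Nanos2, as a description, differed by -2.08 (FC minus MC). Nanos1 differed by 0.30 (interval -0.16 to 0.76, adjusted p = 0.298), with all FC libraries above all MC libraries. Dnd1 differed by 0.03 (interval -0.37 to 0.44), Pum2 by 0.03 (interval -0.17 to 0.23) and Nanos3 by -0.12 (interval -0.63 to 0.38), with adjusted p-values of 0.912, 0.829 and 0.72. Were the male sets read by their titles, FC would be set against MIR. Then Dnd1 (2.06), Nanos3 (0.83) and Pum2 (0.22) would be higher in FC with adjusted p-values of 3.5e-06, 0.00794 and 0.0478, and Nanos2 would be at -0.56. In Nanos2 every MIR library also lay above every female library, and the share of genes for which this holds was not computed.

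The test of whether the female difference (FIR minus FC) differed from the male one (MIR minus MC) called 7.77% of genes, 2.81% with a higher and 4.96% with a lower female difference. For Nanos2 the difference was 1.50. Nanos2 is near 0 in both female groups and passed the filter through MC alone. This difference too is tied to the filter, so it is a description and no p-value is given. Dnd1 (0.63, interval 0.05 to 1.20, limma adjusted p = 0.176), Nanos3 (0.76, interval 0.05 to 1.47, adjusted p = 0.181), Nanos1 (0.43, adjusted p = 0.418) and Pum2 (-0.21, adjusted p = 0.357) did not pass. With the male sets taken by code, the differences in Nanos3 and Pum2 that passed in 1 sex are therefore not shown to differ between the sexes. Were the male sets read by their titles, Nanos3 would be at -1.15 (limma adjusted p = 0.00773) and Pum2 at -0.59 (limma adjusted p = 0.00136). Both would then pass, and Dnd1 would be at -3.42, so the answer depends on the unsettled male labels. As a description, the Nanos2 difference was 1.42 to 1.53 without MIR replicate 1 or 3, MC replicate 3, FIR replicate 2 or any FC replicate. With a pseudocount of 0.1 it was 2.28.

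The machinery through which these proteins act was examined with 4 gene lists. Over all genes tested, 22.9% fell and 21.8% rose in FIR against FC, and 31.0% were lower and 28.7% higher in MIR against MC. Of 17 tested genes of the CCR4-NOT deadenylase and its partners, 10 fell and 1 rose in FIR against FC, with a median of -0.37, and 9 were lower and 4 higher in MIR against MC, with a median of -0.41. The one that rose in females, Tob1, an antiproliferative adaptor of the deadenylase, rose by 1.13 (limma adjusted p = 0.000297) from 15.6 ± 0.903 to 35.4 ± 3.39 FPKM, and was higher in MIR than in MC by 1.31 (adjusted p = 5.66e-05). The scaffold gene Cnot1, whose product is bound by Nanos proteins, fell by 0.67 in females (adjusted p = 0.000529) and differed by -0.41 between the male sets (adjusted p = 0.00575). Cnot2 fell by 0.73 and Cnot6l, a catalytic subunit, by 0.61 in females. Between the male sets Cnot2 differed by -0.80, Cnot11 by -0.82 and the deadenylase gene Pan2 by -0.68, and Cnot6l, at -0.17, did not pass. Cnot11 and Pan2 also fell in females, at -0.39 and -0.54. Cnot7, another catalytic subunit, was the one list member in which the female and male differences differed (-0.47, adjusted p = 0.0448). After quantile normalization 6 of the list fell in females, and calls over all genes under that setting are not given here. With the germ cell covariate none was lower between the male sets, where calls over all genes went from 7679 to 1217. That covariate lowers the power, as described for Nanos3, so these lost calls cannot be told apart from that. Without MIR replicates 1 and 3 together 1 MIR library is left, so no list counts are given for that setting.

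Of 23 genes of processing bodies and decapping, 8 fell and 4 rose in females (median -0.26; 22.9% and 21.8% over all genes), and 11 were lower and 4 higher in MIR (median -0.29; 31.0% and 28.7% over all genes). Those that rose most were not core decapping factors. Zfp36l1 and Zfp36, which encode proteins that bind AU-rich elements and trigger decay, rose by 2.46 (limma adjusted p = 2.56e-06) and 1.79 (adjusted p = 0.000295) in females. They were also higher in MIR than in MC, by 0.76 (adjusted p = 0.00221) and 1.04 (adjusted p = 0.00445). Zfp36l1 also differed between the female and male differences (1.71, adjusted p = 0.00234). Pnrc2, a decapping coactivator, rose by 1.23 in females and was higher by 1.20 in MIR. Patl1, a decapping scaffold, fell by 0.72 in females and differed by -0.50 between the male sets, where the helicase gene Upf1 differed by -1.16 and Lsm14b by -0.84. In females Upf1 also fell, at -0.66, and Lsm14b, at -0.35, did not pass (adjusted p = 0.0707). With the covariate 4 fell in females and 1 was lower between the male sets. Calls over all genes then went from 5756 to 3024 in females and from 7679 to 1217 between the male sets. With library weights 15 fell in females, and calls over all genes under that setting are not given here.

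Of 24 other germ cell RNA-binding protein genes, 18 fell and 2 rose in females (median -0.63), where 22.9% and 21.8% of all genes did, and 21 were lower and 2 higher in MIR (median -0.99), where 31.0% and 28.7% of all genes were. They include 6 of the germ cell reference genes. Rbm46 fell by 1.14 and Igf2bp1 by 0.99 in females. Lin28a, the let-7 blocking protein, differed by -1.48 between the male sets, Cpeb1, a regulator of cytoplasmic polyadenylation, by -1.43 and Igf2bp1 by -1.19. Rbm46 differed there by -1.08, and Lin28a and Cpeb1 also fell in females, at -1.01 and -0.94. Msi2, a Musashi protein, went the other way, by 1.50 in females and 1.82 between the male sets. With the covariate 7 of the list fell in females and 2 were lower between the male sets. Calls over all genes then went from 5756 to 3024 in females and from 7679 to 1217 between the male sets.

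Of 12 genes reported as targets of NANOS2, DND1 or Pumilio proteins, 7 fell and 1 rose in females (median -0.36), and 8 were lower and none higher in MIR (median -0.57), beside 22.9%, 21.8%, 31.0% and 28.7% of all genes. The one that rose was Cdkn1b, which encodes the cell cycle inhibitor p27. Cdkn1b was at 6.38, 5.49 and 7.09 FPKM in FC and 94.97, 36.0 and 32.3 in FIR. Every FIR library thus lay above every FC library in Cdkn1b, where 61.6% of genes tested did not overlap. Its log2 difference was 2.75 (SE 0.33, limma adjusted p = 8.22e-05). It was at 10.998, 12.7 and 11.4 FPKM in MC and 13.7, 7.11 and 11.7 in MIR, a difference of -0.15 (adjusted p = 0.719), and the female and male differences differed by 2.90 (adjusted p = 0.00444). FIR replicate 1, the highest in Cdkn1b, was also the highest in the pregranulosa marker sum (789 against 390 and 400), which included Cdkn1c but not Cdkn1b. The part of other cells in this difference was not tested.

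Of the other listed targets, Mapk14, a kinase gene, fell by 0.47 in females and differed by -0.45 between the male sets. Sohlh2, a germ cell transcription factor gene, differed by -1.11 and Dazl by -1.07 between the male sets. Both also fell in females, at -0.68 and -0.63. E2f3, with 3 elements TGTANATA in its 3′ UTR, fell by 0.47 in females (adjusted p = 0.00947) and differed by -0.39 between the male sets (adjusted p = 0.0161). The meiotic targets Stra8 and Sycp3 did not pass in females, at -0.19 and -0.33 (limma adjusted p = 0.693 and 0.374), with Stra8 at 90.5 ± 33.5 FPKM in FC and 82.8 ± 39.4 in FIR. Between the male sets Sycp3 was lower in MIR, at -0.80 (limma adjusted p = 0.0304), and Stra8, at -0.41, did not pass. Stra8, Sycp3 and Taf7l were higher in FC than in MC, by 5.70, 1.43 and 2.46. Counts over this list moved with single libraries: 4 fell in females without FIR replicate 1 or FC replicate 2 and 3 without FC replicate 1, and 5 were lower between the male sets without MIR replicate 1 or 3. After quantile normalization 3 fell in females. Calls over all genes under these settings are not given here. With the covariate 2 fell in females and 2 were lower between the male sets. Calls over all genes then went from 5756 to 3024 in females and from 7679 to 1217 between the male sets.

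**Figure D4:**
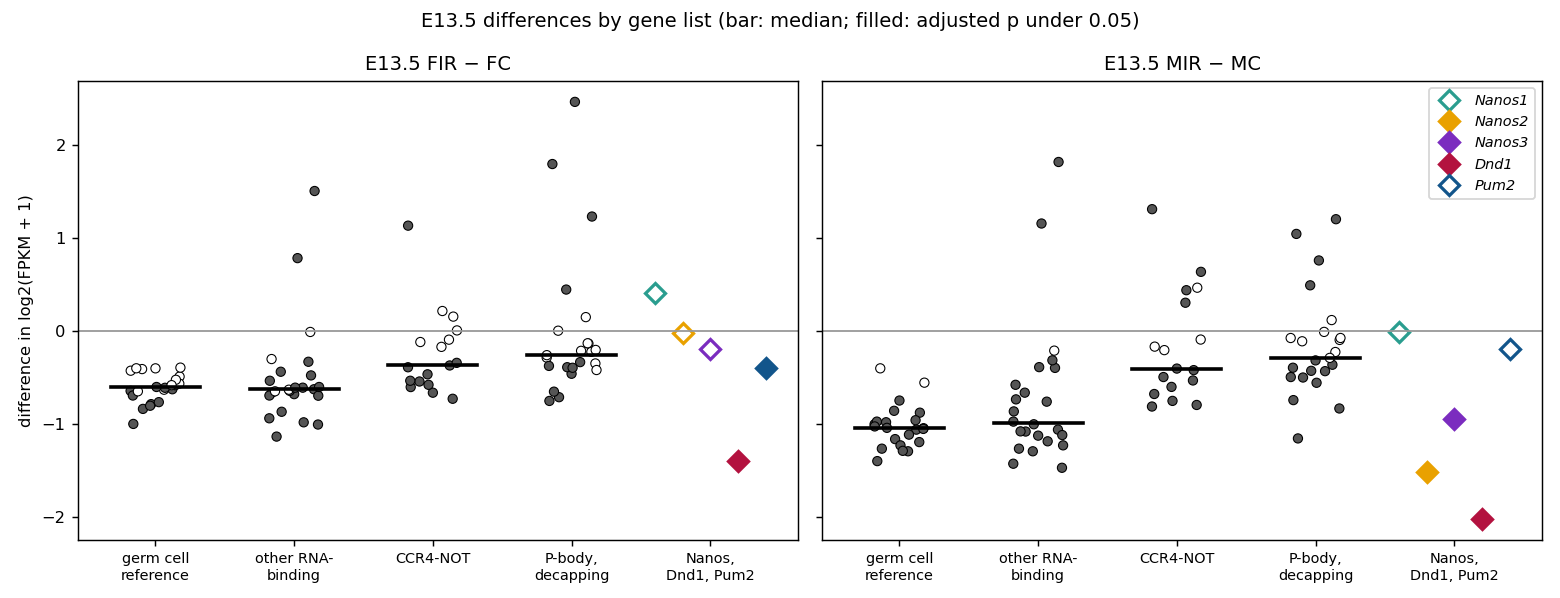
Log2 differences in FPKM + 1 (vertical axis) of the germ cell reference genes, the RNA-binding protein, CCR4-NOT and decapping lists and the 5 regulators in FIR minus FC and MIR minus MC, with bars at list medians and filled points at an adjusted p under 0.05. Dnd1 lies below all points of the germ cell reference list in both panels, and the regulators spread from -1.40 to 0.41 in females and from -2.03 to -0.02 between the male sets.

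Between FC and MC, where 18.8% of all genes were lower and 16.1% higher in FC, of the CCR4-NOT list 1 was higher in FC and 2 lower, of the decapping list 1 and 6, of the RNA-binding proteins 5 and 2 and of the reported targets 3 and 2. Fmr1 and Ybx2, which encode translational regulators, were higher in FC by 1.08 and 1.01, and Lsm14a and Zfp36l2 were lower by -0.47 and -0.82 (limma adjusted p = 0.00037, 0.000399, 0.000584 and 0.000623).

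At E11.5 limma called none of the 73 listed genes tested, and 3 had an unadjusted p under 0.05. List medians there lay between -0.03 for the reported targets and 0.25 for the RNA-binding proteins, against -0.02 over all genes tested.

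Genes with the Pumilio element in the 3′ UTR, irrespective of lists, were compared with the rest of the tested genes. In FIR minus FC, 30.7% of 2892 genes with the element fell and 17% rose (median -0.13), against 21.6% and 23.7% of 8736 genes without it (median -0.01). In MIR minus MC the shares were 33.5% lower and 26.3% higher (median -0.08) against 31.4% and 30.1% (median -0.04). Tested genes with the element had a median 3′ UTR of 2028 bases against 756 without it, so UTR length and the element cannot be told apart in these shares.

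The 5 genes did not vary as a group across the 12 E13.5 libraries. As a description, Pearson's r on log2(FPKM + 1) was 0.79 between Nanos3 and Dnd1, 0.63 between Dnd1 and Pum2, 0.01 between Nanos1 and Dnd1, and -0.48 and -0.49 between Nanos1 and Nanos2 and between Nanos1 and Pum2. Among 11944 tested genes with a name, the profiles most like that of Dnd1 were Fbxo31 (0.99), Crlf3 (0.98) and Sall4 (0.98), the last a zinc-finger factor of germ cells. Sall4 was at 86.2 to 90.8 FPKM in FC and 28.8 to 49.1 in FIR, and at 82.1 to 87.8 in MC and 17.3 to 36.7 in MIR. Nanos2 was most like Hlf (0.99), Hesx1 (0.98) and Ift122 (0.98), and Hesx1 was at 11.6 FPKM in the same E11.5 library that had Nanos2, IR replicate 1, and at most at 0.177 in the other 4. Nanos3 was most like Mllt6 (0.89), Polr1d (0.88) and Pip4k2b (0.88), Nanos1 like Immp2l (0.95), Selm (0.94) and Sncg (0.93), and Pum2 like Prpf4b (0.95), Mier3 (0.94) and Ubn2 (0.94). These values are over libraries that share groups, so any genes with a common difference between groups score high.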

How the data were processed

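The authors deposited FPKM values, per the file headers, as a table of 5 E11.5 libraries and another of 12 E13.5 libraries, 17 in all. The submitters' processing notes name mm10 and DESeq2. The sources do not name an aligner, counter, annotation or strand setting (not given in the sources used here). No count model was run, since FPKM are not counts. Depth was estimated from the spacing of low values, of which 64.8 to 77.0% were whole fragments within 0.1. A depth fixed in advance would give 20% by chance, but the depth was chosen to make this share high, so 20% is no chance level here.

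Values were tested as log2(FPKM + 1) with limma 3.58.1 (R 4.3.3, limma-trend, empirical Bayes, two-sided). The E13.5 groups shared 1 fit, and adjusted p-values are Benjamini-Hochberg values over all genes tested. Fold changes are on the FPKM + 1 scale and understate those of low genes. No 2 libraries were identical. A Dnd1 pseudogene is known, and how its reads were assigned is not given in the sources used here. Python 3.11.15 served for sequences, ratios and figures, and the fit was tested on simulated data.

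Members and lists were chosen with earlier results of these data known. Named genes were the 5 members, up to 4 called genes per list, by smallest adjusted p, and the 3 genes most like each member. Other genes (E2f3, Amh, Fst, Ddx4, Dhh, Hsd17b3, and list genes in comparisons outside their rank) were named after their values were seen, and some genes that the rule names are left out of the text. Same-numbered libraries did not deviate together at E13.5. The settings varied were the pseudocount (0.1 and 0.5), the filter (none, or 5 FPKM), the scaling (quantile normalization or library medians), library weights, a replicate block, the germ cell reference level as a covariate, fitting only the groups compared, leaving out each library or MIR replicates 1 and 3 together, and exchanging the male sets.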

Additional observations from a re-analysis of the deposited data

Results flagged for a closer look

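The difference between the female and male differences was past the threshold for Nanos2, at 1.50 on the log2 scale, and is given as a description with no p-value. Nanos2 was at 1.73 to 5.59 FPKM in MC, 0.365 to 0.659 in MIR and at most 0.0875 in any female library. It passed the filter on low values through the MC libraries alone, the group where it is high, so the call is tied to the filter and is not independent of it. When any 1 of 7 libraries was left out the difference was 1.42 to 1.53, also as a description.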

How the results depend on the processing

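Of 412 values of single genes under an alternative, 369 kept their direction and side of the threshold, 9 passed newly, 14 no longer passed and 20 changed direction. Nanos2 is included, and 9 of the 14 are its values in the difference between sexes, where its call was tied to the filter. The number of regulators called was 0 at E11.5 under every alternative run. It went from 2 to 1 in FIR against FC with quantile normalization, and to 3 with library weights, with the covariate and without FIR replicate 1, where Nanos1 also passed. Calls over all genes went from 5756 to 3024 with the covariate and are not given here for the other settings. Nanos2, whose calls against MC were built into the filter, is included in the next counts. In FC against MC the number of regulators called went from 1 to 0 with a filter at an FPKM of 5, which removes Nanos2. It went to 3 with the male sets exchanged, where calls over all genes went from 4491 to 7828. For the difference between sexes the 1 regulator called was Nanos2, so counts of 0 or 1 there test nothing. The number went to 3 with library weights and to 4 with the male sets exchanged. Calls over all genes there went from 998 to 3763 and 8702.

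Changes of direction were as follows. In FIR minus FC, Nanos2 was at 0.026 with library weights and 0.13 with the covariate, and ranged from -0.054 to 0.011 without single libraries. Nanos3 was at 0.045 with the covariate and ranged from -0.40 to 0.056. In MIR minus MC, Nanos1 was at 0.92 with the covariate (adjusted p = 0.0293) and 0.41 without MIR replicates 1 and 3 together, and ranged from -0.23 to 0.10 without single libraries. In FC minus MC, Pum2 was at -0.035 with library weights and ranged from -0.016 to 0.094, Dnd1 was at -0.048 with the covariate and ranged from -0.012 to 0.10, and Nanos3 was at 0.83 with the male sets exchanged (adjusted p = 0.00794) and ranged from -0.37 to 0.085. For the difference between sexes, Nanos1 was at -0.0043 without MIR replicates 1 and 3 together, and exchanging the male sets turned Nanos2 to -1.54, Nanos3 to -1.15 and Dnd1 to -3.42. The cause was not tested, except that the exchange turns the male difference by construction.

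Counts over all genes moved by over 1.5 times at E11.5, from 2 to 1 with no filter, 7 with the covariate, 12 without IR replicate 2 and 4 without noIR replicate 2 or 3. They went from 5756 to 3024 in FIR against FC and from 7679 to 1217 in MIR against MC with the covariate, the latter also to 3534 without MIR replicates 1 and 3 together. They went from 4491 to 8835 in FC against MC with library weights and to 7828 with the exchange. For the difference between sexes the 998 calls became 557 with the filter at 5, 3763 with weights, 340 without MIR replicates 1 and 3 together, 8702 with the exchange and 531 to 2637 without single libraries. With the replicate number as a block the regulators called stayed at 0, 2, 3, 1 and 1, and the count over all genes at E11.5 was 5. Nanos2 is counted there wherever MC is involved, as built into the filter. Same-numbered libraries correlated by 0.16 and 0.25 at E11.5 (2 pairs) and by -0.22 to 0.09 at E13.5, so the numbers are not shown to pair libraries. At E11.5, 2 irradiated libraries limit what could be detected.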
